A study of Mus musculus with 10 samples.

Results

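The genes described here are 10 canonical targets of Wnt/beta-catenin signalling, most of them feedback regulators of the pathway, in mammary tumours of MMTV-PyMT mice. They are Axin2, Lef1, Nkd1, Notum, Sp5, Lgr5, Rnf43, Znrf3, Wif1 and Apcdd1, taken by symbol as a fixed list from the 57010 genes of the counts table, and all 10 were found there. The study sequenced poly(A) RNA of 10 whole, untreated tumours collected 5 weeks after tumour onset. The 5 knockout libraries, called KO 1 to KO 5 here, came from tumours of the genotype PyMT; RHBDL4 -/-. The 5 wild-type libraries, WT 1 to WT 5, came from tumours of the genotype PyMT; RHBDL4 +/+. All 10 tumours therefore carried the PyMT transgene, in which the MMTV promoter drives the polyoma middle T oncogene mainly in mammary epithelium, so the comparison is between 2 kinds of oncogene-driven tumour, with no normal gland. Rhbdd1 encodes RHBDL4, an intramembrane protease of the rhomboid family that sits in the endoplasmic reticulum.

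In canonical Wnt signalling, a secreted Wnt protein binds a Frizzled receptor with an LRP co-receptor, the complex that marks beta-catenin for degradation is inhibited, and beta-catenin enters the nucleus and activates genes together with TCF and LEF proteins. Many of the genes that respond most regularly encode inhibitors of the pathway, so that their RNA is widely read as a measure of pathway output and they also limit it. In the mammary gland Wnt signalling is known for its part in the embryonic bud, in basal stem cells and in tumours driven by Wnt1. Skin and its hair follicles depend on the same pathway.

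Library names begin with a number that is shared by KO 3 and KO 4, by WT 1 and WT 2, and by WT 3 and WT 4, and its meaning is not stated in the labels. No label ties a library to an animal, so p-values measure the spread among the samples alone, and some of that spread may be technical. Total counts ran from 25.7 to 43.3 M per library. Levels are CPM, each library's counts brought to a common library size with TMM factors, unless another scale is named. Rhbdd1 averaged 17.0 ± 3.40 CPM in the knockout tumours, against 35.2 ± 7.48 CPM with both alleles intact (SD, n = 5 each), and the 2 groups of libraries did not overlap for it. Even so, the edgeR test used below did not call Rhbdd1. Its adjusted p was 0.669 with all 10 libraries and 0.113 without WT 5, so a gene that is not called may still differ. WT 5 went against its tissue label. The summed level of 10 luminal epithelial markers was 127.8 CPM there, against 4117 to 7438 CPM in the other 9 libraries, the sum of 10 skeletal muscle markers was 133100 CPM against at most 1455 CPM, and its TMM factor was 0.588 against 1.01 to 1.10 in the others. The members are therefore compared with all 10 libraries and with the 9 that leave out WT 5. In whole tissue, fewer cells of a type and less RNA per cell cannot be told apart.

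The level of these genes per kilobase of exon differed widely between members. Over the 9 libraries, the median was 17.0 CPM per kilobase for Wif1, 8.25 for Rnf43 and 2.09 for Znrf3. It was 0.672 for Axin2, 0.555 for Apcdd1, 0.497 for Lgr5 and 0.427 for Nkd1. Lef1 followed with 0.175 CPM per kilobase, Notum with 0.0301, and Sp5 had a median of 0. Many ranges over the libraries overlapped, so this order holds for the medians only. Wif1 ran from 0.683 to 28.7 CPM per kilobase, Axin2 from 0.115 to 9.49 and Lef1 from 0.0635 to 0.597.

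For none of the 10 genes did the difference between knockout and wild-type tumours pass the test against the spread between libraries. A low-count filter left 8 of the 10 members for the test, all but Notum and Sp5. In edgeR's quasi-likelihood test 0 of these 8 was called with 10 libraries, where 0 of 18577 genes (percent called 0) passed an adjusted p of 0.05, and 0 of 8 without WT 5, where 2 of 19016 genes (0.0105%) did. At an unadjusted p under 0.05, edgeR gave 1 of 8 members with 10 libraries, Nkd1, against 7% of all genes, and 0 of 8 without WT 5, against 11.6% of all genes. DESeq2 called 0 of 8 members with 10 libraries, against 0.312% of all genes, and 0 of the 6 members it gave a p without WT 5, against 2.98%. Limma-voom with sample quality weights called 0 of 8 in both sets, against 0.0915% of all genes with 10 libraries and 0.747% without WT 5. At an unadjusted p under 0.05, DESeq2 gave 2 of 8 members with 10 libraries, Axin2 and Nkd1, against 9.45% of all genes, and 0 of 6 without WT 5, against 13.7%. Limma-voom gave 1 of 8 at that threshold in each set, Lgr5, against 18.7% of all genes with 10 libraries and 18.5% without WT 5. The knockout and wild-type libraries overlapped for all 10 members in both sets, while the groups did not overlap for 1.99% of all genes tested with 10 libraries and for 5.62% with 9. The median log2 fold change of the 8 tested members was -0.37 without WT 5 (2 higher and 6 lower in knockout), against 0.03 over all genes tested. Without WT 2 as well, 6 of the 8 were higher and 2 lower in knockout.

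**Figure D1:**
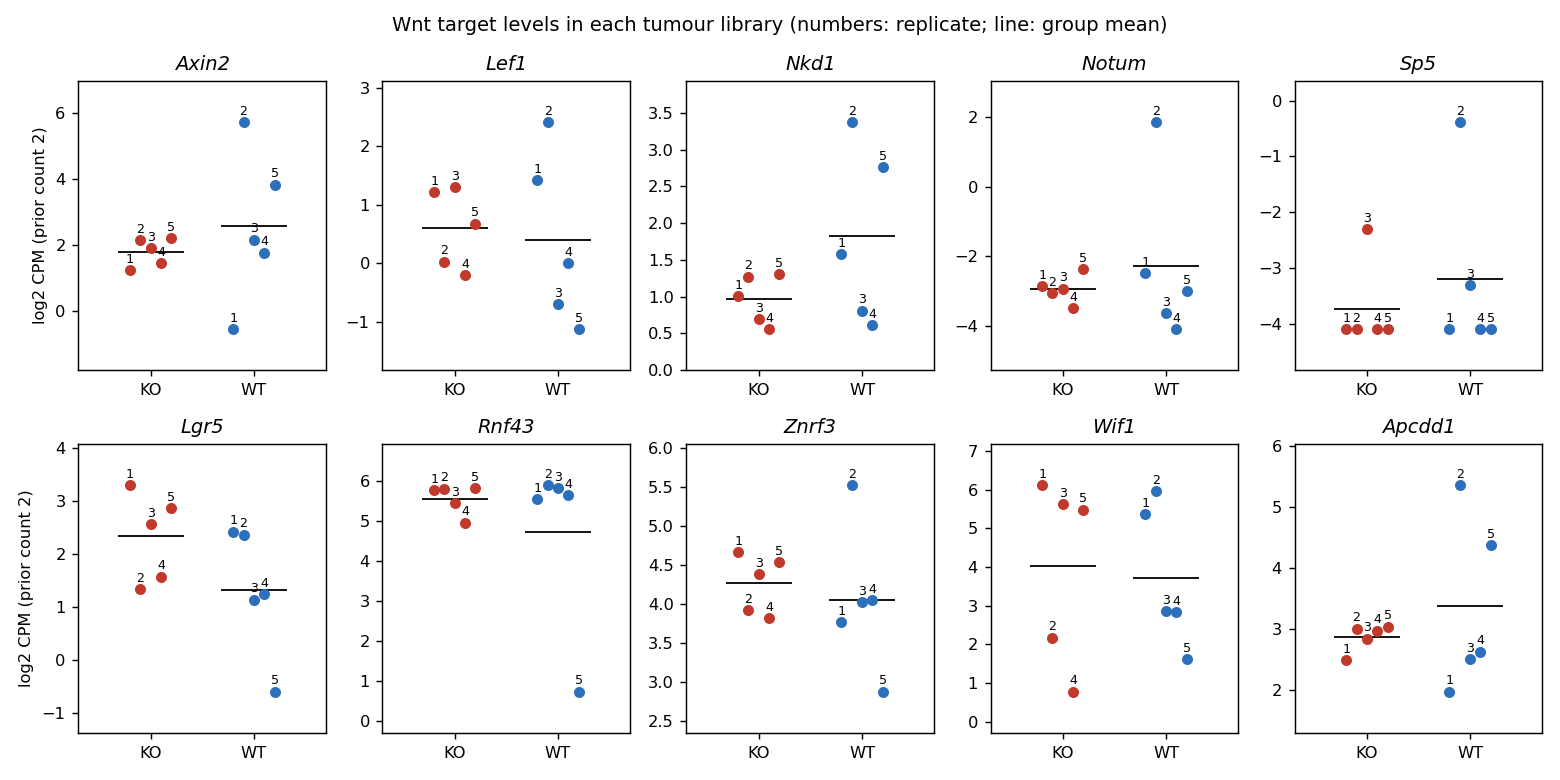
Level of each of the 10 Wnt targets in every tumour library, as log2 CPM with a prior count of 2, with knockout libraries left (red) and wild-type libraries right (blue). Numbers beside points are replicate numbers and lines are group means. WT 2 is the highest point for 8 of the 10 genes, all but Lgr5 and Wif1.

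Axin2 (ENSMUSG00000000142) encodes a scaffold of the beta-catenin destruction complex and is among the most widely used readouts of the pathway. It stood at 2.32, 4.40, 3.70, 2.68 and 4.54 CPM in KO 1 to KO 5, and at 0.633, 52.3, 4.44, 3.35 and 14.2 CPM in WT 1 to WT 5. The 5 knockout tumours lay within a narrow range, and the wild-type tumours held both the lowest and the highest levels of the series. WT 1 and WT 2, which share a leading number, differed 82.5-fold. Knockout over wild type, the log2 fold change was -2.08 ± 0.94 (SE) with 10 libraries (edgeR adjusted p = 0.669) and -2.08 ± 0.99 without WT 5 (adjusted p = 0.461). Without WT 2 and WT 5 it was 0.33 ± 0.55 (adjusted p = 0.872), with 3.53 ± 1.00 CPM in knockout (SD, n = 5) and 2.81 ± 1.96 CPM in the 3 wild-type tumours that remained (SD, n = 3). Left out alone from either set, single libraries gave adjusted p-values from 0.355 upwards for Axin2, so no such set called it.

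The promoter of Axin2 is shown because this gene differed most between WT 2 and the next library among the tested members, that of Sp5 because it holds the TCF/LEF core sequence, and that of Wif1 because its levels follow another order of the libraries. Each runs from 250 bases before to 50 bases after the start, as RefSeq gives it on GRCm38.p6, while the reads were counted on GRCm39. The regions are chr11:108920099-108920398 for Axin2, chr2:70474673-70474972 for Sp5 and chr10:121033754-121034053 for Wif1, all on the plus strand. Capitals mark CTTTGA on either strand and its extension CTTTGAT.
Axin2: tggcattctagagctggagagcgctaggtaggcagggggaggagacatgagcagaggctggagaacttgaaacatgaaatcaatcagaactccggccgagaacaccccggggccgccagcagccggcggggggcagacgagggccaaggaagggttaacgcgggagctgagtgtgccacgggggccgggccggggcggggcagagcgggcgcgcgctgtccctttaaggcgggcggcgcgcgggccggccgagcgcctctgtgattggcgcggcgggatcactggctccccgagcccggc
Sp5: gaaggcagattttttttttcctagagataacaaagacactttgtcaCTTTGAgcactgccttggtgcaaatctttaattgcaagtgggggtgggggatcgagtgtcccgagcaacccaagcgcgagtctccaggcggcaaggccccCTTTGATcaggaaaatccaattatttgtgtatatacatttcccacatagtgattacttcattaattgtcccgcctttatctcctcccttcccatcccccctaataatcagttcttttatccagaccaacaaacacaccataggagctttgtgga
Wif1: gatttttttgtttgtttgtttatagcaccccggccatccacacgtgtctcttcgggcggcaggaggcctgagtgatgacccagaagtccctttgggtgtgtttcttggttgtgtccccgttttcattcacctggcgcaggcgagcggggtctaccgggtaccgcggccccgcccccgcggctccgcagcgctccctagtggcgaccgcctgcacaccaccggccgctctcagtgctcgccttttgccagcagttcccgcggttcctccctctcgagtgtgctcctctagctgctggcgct
RefSeq promoters were matched for 6 of the 10 members (Axin2, Lef1, Nkd1, Sp5, Rnf43 and Wif1, with 10 entries in all). CTTTGAT was found in 1 of the 6, Sp5, 104 bases before the start, and in 3.73% of all 32851 promoters of 300 bases. CTTTGA, which every CTTTGAT contains, was found in Sp5 and in 1 of the 4 entries of Lef1, and in 16% of all promoters. A match describes these letters in this window and shows no binding.

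Apcdd1 (ENSMUSG00000071847) encodes a membrane glycoprotein that inhibits Wnt signalling at the cell surface and is known in humans for a hereditary loss of hair. It stood at 5.57, 8.00, 7.15, 7.83 and 8.19 CPM in KO 1 to KO 5, and at 3.89, 41.0, 5.64, 6.15 and 20.8 CPM in WT 1 to WT 5. As for Axin2, WT 2 was the highest library, WT 5 the second and WT 1 the lowest. Its log2 fold change was -1.07 ± 0.61 with 10 libraries (edgeR adjusted p = 0.670) and -0.92 ± 0.64 without WT 5 (adjusted p = 0.597). Without WT 2 and WT 5 its sign turned, to 0.50 ± 0.23 (adjusted p = 0.547, in a range of 0.485 to 0.748 over the sets that left out 1 further library).

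Nkd1 (ENSMUSG00000031661) encodes a protein that binds Dishevelled and dampens the signal inside the cell. It stood at 1.94, 2.36, 1.56, 1.42 and 2.41 CPM in KO 1 to KO 5, and at 2.93, 10.3, 1.70, 1.47 and 6.74 CPM in WT 1 to WT 5. WT 2 and WT 5 were again the highest libraries, and the other 8 lay together. For Nkd1 the log2 fold change was -1.25 ± 0.54 with 10 libraries (edgeR unadjusted p = 0.0435, adjusted p = 0.669) and -1.06 ± 0.55 without WT 5 (adjusted p = 0.495). Without WT 2 and WT 5 it was -0.05 ± 0.32 (adjusted p = 0.970, the highest of the sets that left out 1 further library, where the lowest was 0.465).

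For Axin2, Apcdd1 and Nkd1, the second place of WT 5 did not rest on its scaling. Per unscaled library size WT 5 had 8.24 CPM of Axin2, 12.1 CPM of Apcdd1 and 3.92 CPM of Nkd1, each below WT 2 alone. Beside them in WT 5 stood summed levels of 13910 CPM for 10 adipocyte markers and 12420 CPM for 10 fibroblast markers, against at most 2212 and 7011 CPM in the other libraries. Skeletal muscle markers were far higher there, at 133100 CPM. Sums of endothelial, macrophage and Schwann cell markers were also highest in WT 5, at 1027, 1183 and 1335 CPM. The part of those tissues in the levels was not tested.

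Notum (ENSMUSG00000042988) encodes a secreted enzyme that removes the lipid from Wnt proteins and so inactivates them. It had 3, 2, 2, 1 and 5 counts in KO 1 to KO 5, and 4, 145, 1, 0 and 1 counts in WT 1 to WT 5. It exceeded 5 counts in WT 2 alone, where it stood at 3.52 CPM, 26.1 times the next highest of the 9 libraries, KO 5. A count of 0, as in WT 4, allows a level of up to 0.0832 CPM there (3 counts, for counting error only). Sp5 (ENSMUSG00000075304), a zinc finger transcription factor induced by Wnt signals, had 0, 0, 4, 0 and 0 counts in KO 1 to KO 5, and 0, 29, 2, 0 and 0 counts in WT 1 to WT 5. Both genes fell under the low-count filter. Fitted without that filter and without WT 5, Notum had an edgeR adjusted p of 0.597 and Sp5 of 0.597.

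Znrf3 and Rnf43 encode related membrane ubiquitin ligases that clear Frizzled receptors from the cell surface. Znrf3 (ENSMUSG00000041961) stood at 25.2, 15.1, 20.8, 14.1 and 23.1 CPM in KO 1 to KO 5, and at 13.5, 46.0, 16.2, 16.5 and 7.27 CPM in WT 1 to WT 5. WT 2 was again the highest, 1.82 times the next library, but here WT 5 was the lowest. The log2 fold change was -0.02 ± 0.43 with 10 libraries (edgeR adjusted p = 0.991) and -0.21 ± 0.36 without WT 5 (adjusted p = 0.849), and it was positive, 0.36 ± 0.22, without WT 2 and WT 5 (adjusted p = 0.630). Rnf43 (ENSMUSG00000034177) stood at 54.1, 55.6, 43.3, 30.8 and 56.5 CPM in KO 1 to KO 5, and at 46.6, 59.2, 55.8, 49.5 and 1.60 CPM in WT 1 to WT 5. Its paralogue's high level in WT 2 had no counterpart in Rnf43, where WT 2 exceeded the next library only 1.05-fold, and WT 5 held almost none. Rnf43 averaged 48.1 ± 11.0 CPM in knockout (SD, n = 5) and 52.8 ± 5.75 CPM in WT 1 to WT 4 (SD, n = 4), which gave an estimate of -0.12 ± 0.18 in log2 (edgeR adjusted p = 0.824). With 10 libraries the estimate was 0.17 ± 0.65 (adjusted p = 0.939). It was the steadiest member, with an SD of log2 CPM of 0.293 over the 9 libraries, below the median of 0.375 over all genes tested.

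Wif1, Lgr5 and Lef1 followed another order of the libraries, in which KO 1, KO 3, KO 5, WT 1 and WT 2 were high and the other 5 low. These libraries were grouped after their values were seen, so the grouping carries no test. Wif1 (ENSMUSG00000020218), a secreted protein that binds Wnt ligands, stood at 69.7, 4.47, 49.5, 1.66 and 44.9 CPM in KO 1 to KO 5, and at 41.2, 62.2, 7.23, 7.10 and 3.00 CPM in WT 1 to WT 5. No library lay between 7.23 and 41.2 CPM, and both genotypes held high and low tumours. KO 3 and KO 4, which share a leading number, differed 29.9-fold. Wif1 had a log2 fold change of 0.49 ± 1.06 with 10 libraries (edgeR adjusted p = 0.889) and 0.23 ± 1.03 without WT 5 (adjusted p = 0.948).

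Lgr5 (ENSMUSG00000020140) encodes a receptor for R-spondins, which strengthen Wnt signals, and is known as a stem cell marker of the intestine. It stood at 9.83, 2.48, 5.88, 2.92 and 7.27 CPM in KO 1 to KO 5, and at 5.31, 5.10, 2.15, 2.30 and 0.600 CPM in WT 1 to WT 5. The lowest of the 5 high libraries had 5.10 CPM and the highest of the other 5 had 2.92 CPM. Lgr5 had a log2 fold change of 0.87 ± 0.58 with 10 libraries (edgeR adjusted p = 0.686) and 0.63 ± 0.47 without WT 5 (adjusted p = 0.624). Leaving out KO 1, its highest library, gave 0.58 and 0.34 in the same sets. Lef1 (ENSMUSG00000027985), a transcription factor that carries the signal to DNA and is itself a target, stood at 2.26, 0.962, 2.40, 0.813 and 1.54 CPM in KO 1 to KO 5, and at 2.62, 5.25, 0.558, 0.942 and 0.400 CPM in WT 1 to WT 5. The same 5 libraries were at or above 1.54 CPM and the others at or below 0.962 CPM, a gap that rests on 57 counts in KO 5 and 31 in KO 2. Lef1 had a log2 fold change of -0.30 ± 0.69 with 10 libraries (edgeR adjusted p = 0.897) and -0.53 ± 0.62 without WT 5 (adjusted p = 0.762), and it was positive, 0.23 ± 0.57, without WT 2 and WT 5 (adjusted p = 0.917).

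**Figure D2:**
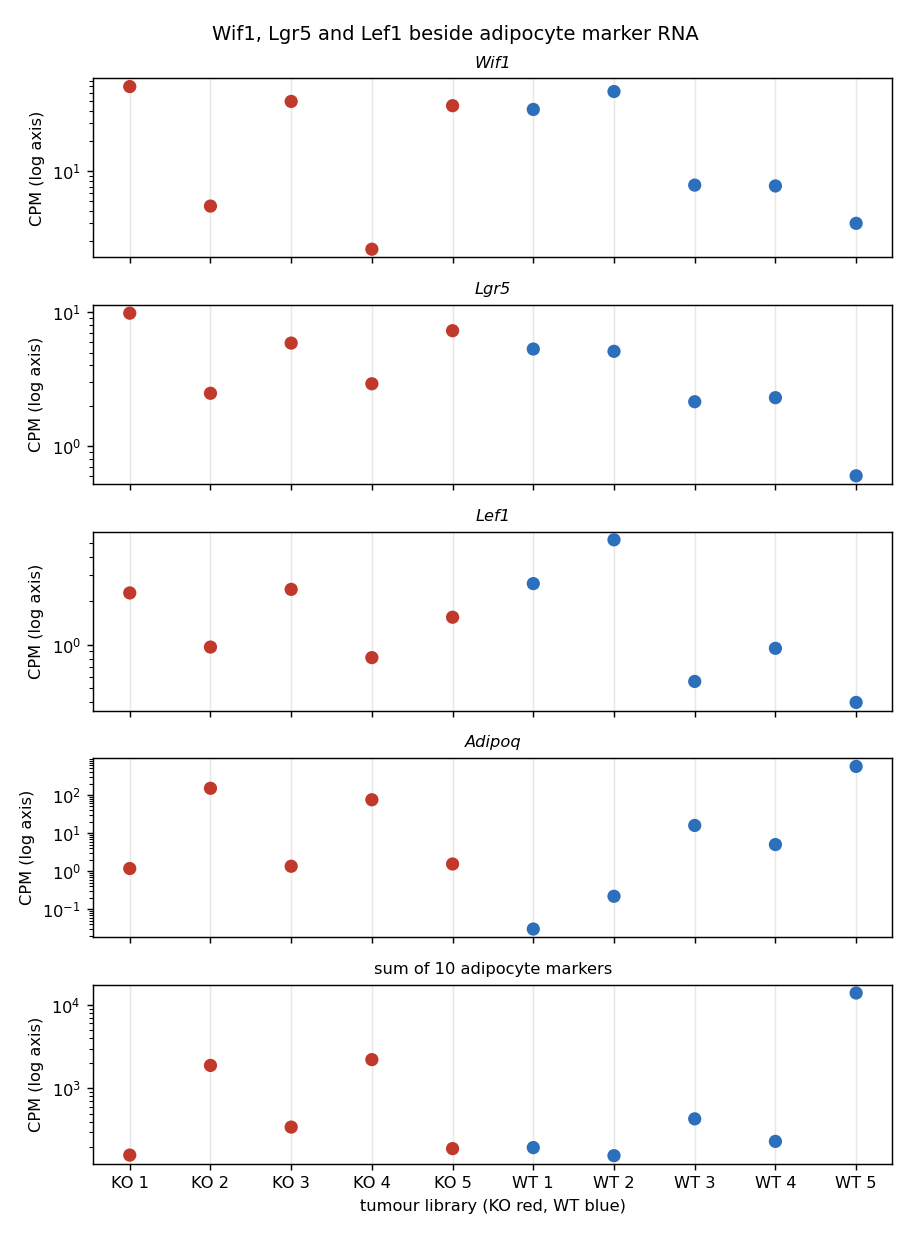
Levels of Wif1, Lgr5, Lef1 and the adipocyte gene Adipoq, and the summed level of 10 adipocyte markers, in every library, in CPM on log axes, with knockout libraries left (red) and wild-type libraries right (blue). KO 1, KO 3, KO 5, WT 1 and WT 2 are high for the 3 Wnt targets and low for Adipoq, while the adipocyte sum does not separate them.

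Fat tissue markers ran in the opposite order in part. Of the 10 adipocyte markers, 5 (Adipoq, Plin1, Cidec, Retn and Cfd) were lower in each of those 5 libraries than in each of the others. Adipoq, the gene of the hormone adiponectin, was at most 1.54 CPM in them and at least 4.99 CPM in the others. The other 5 markers overlapped, as did the summed level of the list, which reached 343.7 CPM in KO 3 and was 231.5 CPM in WT 4. Sums of 10 endothelial and of 10 macrophage markers did separate the libraries. The endothelial sum was at most 203.9 CPM in the same 5 libraries and at least 239.9 CPM in the others. For macrophages these values were 346.6 and 367.3 CPM. Single genes of both lists did so only in part. Pecam1, Cdh5, Tie1, Esam and Egfl7 separated the libraries, while Kdr, Tek, Emcn, Cldn5 and Erg overlapped. Of the macrophage markers only Mrc1 and C1qc separated them and the rest overlapped. Cd68 was even highest in WT 1 and KO 3, at 82.4 and 77.1 CPM. The fibroblast sum did not separate the libraries, with 7011 CPM in KO 5 and 3365 CPM in KO 4. The libraries were grouped by Wif1, Lgr5 and Lef1 after those levels were seen. The share of all genes that separate the same libraries was not counted. Whether 5 of 10 adipocyte markers, or the endothelial and macrophage sums, stand out from other genes was therefore not tested. Markers of T cells, which also express Lef1, summed to between 6.68 CPM in WT 2 and 14.5 CPM in KO 2 over the 9 libraries. The part of adipose tissue and of T cells in the levels of these 3 Wnt targets was not tested.

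Correlations of log2 CPM between members are given as a description over the 9 libraries, among which 3 pairs share a leading number. Pearson's r was 0.95 between Axin2 and Apcdd1 (0.81 without WT 2) and 0.97 between Nkd1 and Notum (0.78 without WT 2). Outside WT 2 Notum had at most 5 counts per library, so its value of 0.78 was taken near the floor. Pearson's r was 0.85 between Lgr5 and Wif1 (0.87 without WT 2) and 0.83 between Lef1 and Wif1 (0.85 without WT 2). The tie of Axin2 and Apcdd1 to Nkd1 rested on WT 2. Pearson's r was 0.684 between Axin2 and Nkd1 and 0.806 between Apcdd1 and Nkd1, and without WT 2 it was -0.469 and -0.358. Between Axin2 and Wif1 it was 0.152 (-0.292 without WT 2), and between Axin2 and Lef1 0.341 (-0.555 without WT 2). The SD of log2 CPM was 1.63 for Axin2 and 1.98 for Wif1, and 2.33% and 1.05% of all genes tested had a larger one.

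Among 13308 other genes with a mean of at least 1 CPM, those whose log2 levels were most like Axin2 over the same 9 libraries were Camsap3 (Pearson's r 0.955), Jarid2 (0.955) and Apcdd1 (0.948). The closest to Wif1 were Arl14ep (0.983), Seh1l (0.961) and Cldn8 (0.960), and the closest to Lgr5 were Orai2 (0.976), Lsm12 (0.976) and Zfp652 (0.970). For Lef1 they were Aebp2 (0.966), Rhebl1 (0.963) and Rprd1a (0.947), and those named for Rnf43 are Txlna (0.964) and Fancg (0.954). For Znrf3 they were Pros1 (0.959), Ceacam19 (0.954) and Ano9 (0.950). Nkd1 was most like Gripap1 (0.963), Fam84a (0.960) and the keratin gene Krt6b (0.953), and Apcdd1 most like Nfe2l3 (0.951), Axin2 (0.948) and Endou (0.944). Without WT 2 the values for Krt6b and Nfe2l3 were 0.652 and 0.679. Krt6b, Endou and Ceacam19 averaged at least 1 CPM only through WT 2, so their likeness rests largely on that library. Krt6b stood at 11.5 CPM in WT 2 and at most 0.151 CPM elsewhere. Over the 9 libraries, Endou stood at 22.9 CPM in WT 2 and at most 1.86 CPM elsewhere, and Ceacam19 at 5.98 and at most 2.03 CPM. With 9 libraries and this many genes, values of this size are a ranking only.

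WT 2 stood apart for several members at once. In this tumour 5 of the 10 members (Axin2, Nkd1, Notum, Sp5 and Apcdd1) were at over 2-fold the next highest of the 9 libraries on the moderated log2 scale, against 1.28% of the 27287 genes with at least 10 counts over those libraries. No other library held any member in that way, although WT 1 and KO 4 held more such genes in all, 1.66% and 1.55%. Sp5 had 29 counts in WT 2 and otherwise only 4 in KO 3 and 2 in WT 3. It therefore passed the limit of 10 counts only through the library where it was high. How many of all the genes did the same was not counted. Axin2 in WT 2 exceeded the next of the 9 libraries 11.5-fold in CPM, Apcdd1 5.00-fold, Nkd1 3.52-fold and Lef1 2.00-fold. WT 5, which is left out here, was second for Axin2, Apcdd1 and Nkd1, at 14.2, 20.8 and 6.74 CPM. In WT 2 these genes stood at 52.3, 41.0 and 10.3 CPM, so Apcdd1 and Nkd1 were not over 2-fold their level in WT 5. The distance between WT 2 and WT 1, which share a leading number, was a median of 1.37 in log2 CPM over the 8 tested members and 0.329 over all genes tested. It was 0.526 and 0.305 between KO 3 and KO 4, and 0.147 and 0.169 between WT 3 and WT 4.

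Other genes of the pathway were high in WT 2 too. Of 94 further Wnt pathway genes with at least 10 counts, 7 (7.45%) were there at over 2-fold the next library. They were the ligands Wnt6, Wnt8a, Wnt10a and Wnt10b, the receptor Fzd10, the Dickkopf co-receptor Kremen2 and the BMP and Wnt antagonist Sostdc1. Sostdc1 stood at 2.93, 2.51, 0.690, 0.452 and 1.95 CPM in KO 1 to KO 5, and at 0.543, 23.8, 2.77, 3.85 and 4.00 CPM in WT 1 to WT 5. Wnt10a stood at 2.92 CPM in WT 2 and at no more than 0.267 CPM elsewhere. Ctnnb1, the gene of beta-catenin, was highest in WT 1, at 768.7 CPM, where Axin2 was lowest, and stood at 471.2 CPM in WT 2.

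Markers of hair follicle and epidermis were also high in WT 2. The sum of 10 such markers was 839.9 CPM there, against 15.0 to 65.0 CPM in the other 8 libraries without WT 5, and 9 of the 10 were highest in WT 2, all but Lor. Tchh, which encodes the hair root protein trichohyalin, stood at 562.6 CPM in WT 2 and at most 16.8 CPM elsewhere, in KO 3. Krt27, a keratin of the inner root sheath, stood at 42.3 CPM in WT 2 and 5.84 CPM in KO 3, and Krt71 at 16.6 CPM in WT 2 and 15.8 CPM in KO 3. KO 3, the second library for Tchh, Krt25, Krt27, Krt35 and Krt71, had 3.70 CPM of Axin2, within the range of the other knockout tumours. KO 4, where the epidermal genes Lor and Flg stood at 13.8 and 4.19 CPM, had 2.68 CPM of Axin2. The marker sums of KO 3 and KO 4, 59.6 and 65.0 CPM, were far below that of WT 2. For Sp5, KO 3 was second to WT 2, with 4 counts. Of the 10 basal and myoepithelial markers, 4 (Krt5, Krt14, Krt17 and Trp63) were highest in WT 2, with Krt5 at 260.3 CPM against at most 129.9 CPM in the other libraries. The rest of that list, Oxtr, Cnn1, Myh11, Acta2, Mylk and Tagln, lay in WT 2 within the range of the other libraries. Acta2, for example, stood at 37.7 CPM in WT 2 and at 86.9 CPM in KO 2. Luminal markers summed to 4613 CPM in WT 2, within the range of the other 8 libraries. Whether the follicle, Krt5, Krt14, Krt17 and Trp63 transcripts come from the tumour cells or from skin in the dissected tissue was not tested. Their part in the levels of the Wnt targets was not tested either.

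**Figure D3:**
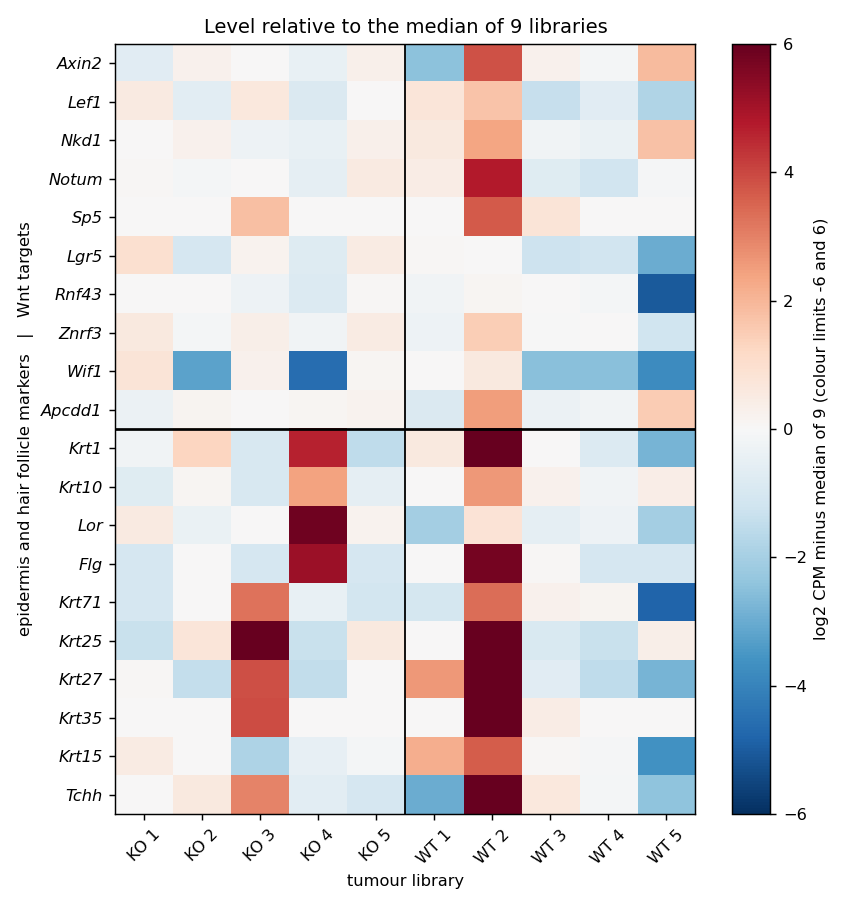
Levels of the 10 Wnt targets (above the line) and of 10 epidermis and hair follicle markers (below it) in every library, as log2 CPM minus the median of the 9 libraries without WT 5, with knockout libraries left and colours limited at -6 and 6. WT 2 is the highest library for most genes of both blocks, all but Lgr5, Wif1 and Lor. KO 3 is the second library for several follicle keratins and, with only 4 counts, for Sp5.

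The other genes of the pathway were not called either. Of 101 further Wnt pathway genes in 5 lists, 82 were tested, and edgeR called 0 higher and 0 lower with 10 libraries and 0 and 0 without WT 5. Without WT 5, 13 of the 82 had an unadjusted p under 0.05 (8 higher and 5 lower in knockout), against 11.6% of all genes. The median log2 fold change over the 82 genes was 0.04, against 0.03 over all genes tested. Values of these genes are given without WT 5, and with 10 libraries where that turns the sign or moves the log2 fold change by over 1.5 times.

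In the destruction complex and its neighbours, 0 of 14 genes were called. Those with the smallest p were Apc, the tumour suppressor that holds beta-catenin in the complex (89.6 ± 7.68 CPM in knockout and 76.7 ± 5.87 CPM in WT 1 to WT 4), Dvl3, a Dishevelled protein (74.9 ± 12.5 against 61.4 ± 4.33 CPM), and Axin1, the constitutive relative of Axin2 (67.7 ± 7.70 against 58.6 ± 2.40 CPM; SD, n = 5 and n = 4). Their edgeR adjusted p-values were 0.376, 0.413 and 0.423. Among 12 TCF proteins and co-factors, the co-repressor Tle1 had 38.5 ± 5.46 CPM in knockout tumours, against 28.4 ± 4.88 CPM in WT 1 to WT 4, and its relative Tle3 had 120.1 ± 23.1 CPM in knockout and 155.9 ± 22.6 CPM in WT 1 to WT 4 (edgeR adjusted p = 0.330 and 0.426). With 10 libraries the log2 fold change of Tle3 was -0.21 ± 0.24, against -0.36 ± 0.16 without WT 5. Tcf7l1, a TCF protein that mostly represses, was at 0.37 ± 0.20 in log2 fold change without WT 5 and at 0.20 ± 0.23 with 10 libraries (edgeR adjusted p = 0.509 and 0.794).

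Of 39 ligands, secretion factors and receptors, 28 were tested and 0 called. Fzd4, a Frizzled receptor also found in blood vessels, averaged 24.5 ± 10.6 CPM in knockout and 12.8 ± 4.90 CPM in WT 1 to WT 4 (edgeR adjusted p = 0.370). It reached 204.6 CPM in WT 5, and with 10 libraries its log2 fold change was -1.06 ± 0.90 in place of 0.96 ± 0.36. Wnt2b had a log2 fold change of 0.69 ± 0.30 and Fzd7 of -0.47 ± 0.22 (edgeR adjusted p = 0.427 and 0.448). Fzd10, which averaged under 1 CPM and is named after its values were seen, had 0.540 ± 0.176 CPM in knockout tumours, against 1.42 ± 1.24 CPM in WT 1 to WT 4, with WT 2 at 3.23 CPM (edgeR adjusted p = 0.375). Of 14 tested antagonists outside the member list, 0 were called. Sostdc1 had a log2 fold change of -2.15 ± 0.95, Kremen1 of 0.39 ± 0.21 and Dkk3 of 0.83 ± 0.64 (edgeR adjusted p = 0.427, 0.503 and 0.639). Kremen1 reached 76.3 CPM in WT 5, and with 10 libraries its log2 fold change was -0.05 ± 0.35. The value of Sostdc1 again rested on WT 2, with 1.71 ± 1.10 CPM in knockout tumours and a mean of 2.39 CPM in WT 1, WT 3 and WT 4. Frzb, a secreted Frizzled-related antagonist, had the smallest p of the list without WT 5 but averaged under 1 CPM, and it too is named after its values were seen. It had 1.12, 0.869, 1.16, 0.844 and 1.60 CPM in KO 1 to KO 5, and 0.0603, 0.219, 0.558, 0.554 and 49.9 CPM in WT 1 to WT 5. Every knockout library lay above WT 1 to WT 4 and below WT 5. Its log2 fold change was 1.67 ± 0.53 without WT 5 (edgeR unadjusted p = 0.0107, adjusted p = 0.317) and -3.18 ± 1.60 with 10 libraries (adjusted p = 0.669).

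Of 14 tested genes from a list of other reported targets, 0 were called. Ccnd1, cyclin D1, averaged 92.0 ± 17.3 CPM in knockout and 131.4 ± 17.3 CPM in WT 1 to WT 4 (SD, n = 5 and n = 4), or -0.50 ± 0.15 in log2 (edgeR adjusted p = 0.309). Unlike Axin2 it was not highest in WT 2, which had 120.9 CPM. Tnfrsf19, a receptor of the TNF family, had a log2 fold change of -1.45 ± 0.50, and Tbx3, a T-box factor of the mammary bud, of 1.33 ± 0.44 (edgeR adjusted p = 0.345 and 0.330). With 10 libraries Tbx3 had the opposite sign, -0.98 ± 1.00, with 48.2 CPM in WT 5, and Ccnd1 had -0.23 ± 0.48, with 13.4 CPM there. Myc stood between 76.7 and 135.7 CPM in the 9 libraries, and at 24.0 CPM in WT 5.

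**Figure D4:**
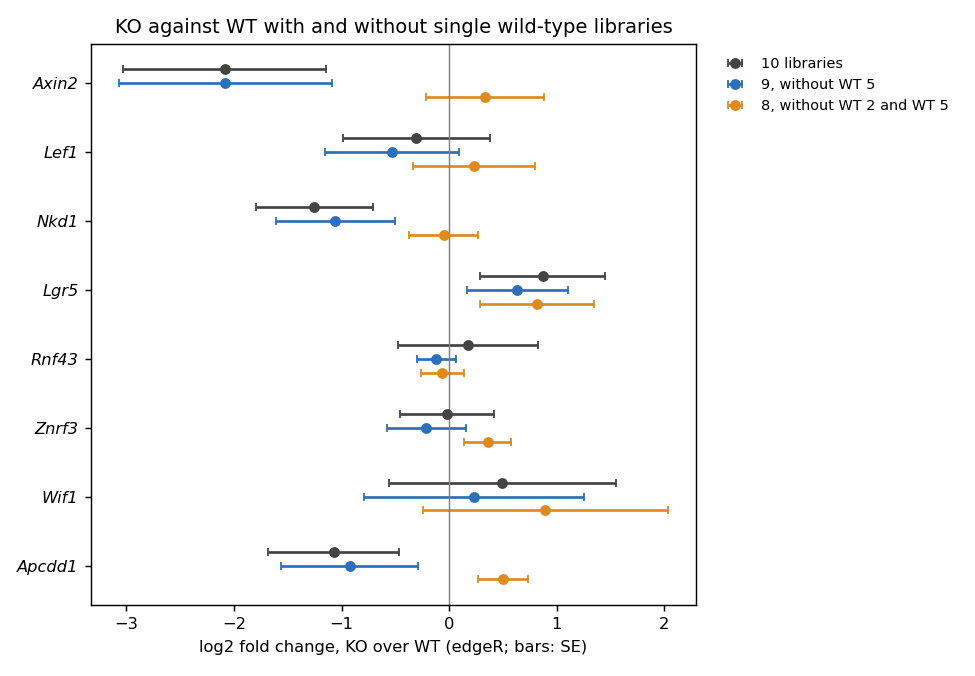
Log2 fold change of knockout over wild type for the 8 tested members, from edgeR with 10 libraries, with 9 (without WT 5) and with 8 (without WT 2 and WT 5), with bars for the standard error. Axin2 and Apcdd1 lie at -2.08 and -0.92 with 9 libraries and at 0.33 and 0.50 with 8.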

How the data were processed

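RNA of 10 mouse mammary tumours was measured by poly(A) RNA sequencing. The authors deposited read counts per Ensembl gene, whole numbers that are not normalized, in 1 table with 1 column per library. Per the submitters' processing notes, the tools were STAR, featureCounts, FastQC and DESeq2 and the build was GRCm39. For their versions, the annotation release, strand and multiple matches, settings were not given in the sources used here, so reads of overlapping genes could have been split or dropped. Symbols came from a gene name table. Columns were matched to samples by library name, and groups by the genotype label. The batch label differs in every library, so if it marks batches, batch and group cannot be told apart.

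The 2 genotypes were tested against each other with edgeR 4.0.16 under R 4.3.3, using TMM scaling, filterByExpr, robust quasi-likelihood F-tests and Benjamini-Hochberg adjustment over all genes tested, called under 0.05. The standard error is the log2 fold change divided by the square root of F. CPM values use the TMM factors of all 10 libraries, log2 CPM a prior count of 2. Exon lengths are unions from GENCODE M21 (GRCm38). Alternatives were RLE scaling, unscaled library totals, DESeq2 1.42.0, limma-voom (limma 3.58.1) with sample quality weights, no filter, sums per leading number and leaving out each library. The tests were tried on simulated counts. CPM is counts divided by the scaled library size. The members, lists and alternatives were chosen with earlier results of these data known. Named were all members, Rhbdd1, the 3 genes averaging at least 1 CPM with the smallest p without WT 5 of each pathway list, the 3 genes most like each member averaging at least 1 CPM (1 of them is not reported here), and, chosen after their values were seen, genes high in WT 2, markers, Ctnnb1, Myc, Fzd10 and Frzb.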

Additional observations from a re-analysis of the deposited data

Results flagged for a closer look

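Single libraries lay far from the rest of their group for 7 of the 10 genes in wild type, and for Sp5 also in knockout. The gap to the nearest library took most of the group's range (30 checks in all). Chance flags about 1 in 20 only where values are independent and normally distributed. These checks reuse the wild-type libraries with and without WT 5 and include very low counts, so that rate does not hold exactly. WT 2 was the high library among the 5 wild-type tumours for Axin2 at 52.3 CPM, Notum at 3.52 CPM, Sp5 at 0.705 CPM and Znrf3 at 46.0 CPM, and also among WT 1 to WT 4. Nkd1 at 10.3 CPM and Apcdd1 at 41.0 CPM stood apart in WT 2 only when WT 5, the second library for both, was left out. WT 5 was the low library for Rnf43, at 1.60 CPM. Sp5 stood apart in KO 3 at 0.145 CPM, which is 4 counts where the other knockout libraries had 0.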

How the results depend on the processing

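No paired analysis was possible because replicate numbers here only name samples in accession order. The count of members called was 0 under every alternative run in both sets, though DESeq2 gave no p-value for Axin2 and Apcdd1 without WT 5, as it does where 1 library passes its limit on Cook's distance. Over all genes, with 10 libraries DESeq2 called 54 and limma-voom with quality weights 17 in place of 0, and leaving out 1 library gave 0 to 2. Without WT 5, DESeq2 called 463, limma-voom 142, library totals alone 1 and sums per leading number 0 in place of 2, and leaving out a further library gave 0 to 1. Of the log2 fold changes of members under alternatives, 227 had the same sign and 21 the opposite one, none of them called. With 10 libraries, Znrf3 was 0.0092 with library totals alone, 0.20 with limma-voom and 0.13 with sums per leading number, Lef1 was 0.71 and Rnf43 -0.011 with limma-voom. Without WT 5, limma-voom gave 0.70 for Lef1, 0.011 for Nkd1 and 0.20 for Znrf3, and also moved Axin2 to -0.52, Apcdd1 to -0.05, Wif1 to 1.40 and Lgr5 to 1.24. The cause was not tested. Leaving out 1 library with 10 libraries moved Znrf3 between -0.21 and 0.55, Lef1 between -0.54 and 0.48 and Rnf43 between -0.12 and 0.32, the highest of each without WT 2; signs turned for Znrf3 without KO 2, KO 4 or WT 2, for Lef1 without WT 2 and for Rnf43 without WT 5. In the set without WT 5 it moved Axin2 between -2.48 and 0.33, Apcdd1 between -1.24 and 0.50, Lef1 between -0.86 and 0.23 and Znrf3 between -0.40 and 0.36, all lowest without WT 1 (Lef1 without WT 3) and highest without WT 2. Wif1 moved between -0.20 (without KO 1) and 0.89 (without WT 2), and was negative also without WT 3 or WT 4, and Rnf43 between -0.18 (without KO 5) and 0.0063 (without KO 4). Lgr5 kept its sign, between 0.34 (without KO 1) and 0.85 (without WT 1). Depth limits Notum and Sp5, which had at most 5 counts in every library but WT 2.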
